A study of Homo sapiens with 3 samples.

Results

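The mitochondrial ribosomal protein genes were taken as every row of the deposited gene table whose symbol is MRPL or MRPS followed by a number and, at most, one letter from A to C. The rule found 78 of 57268 rows, 48 with a large subunit symbol (MRPL) and 30 with a small subunit symbol (MRPS). They carry 76 distinct symbols, because MRPL30 and MRPS17 each have 2 identifiers. RNA was sequenced from HEK 293T cells, as the cell line and source labels name them (the sample titles read HEK293), a human embryonic kidney line that carries the SV40 large T antigen, in 3 libraries, each the only one of its group. The control cells carried no overexpression, another culture overexpressed ADAR2 alone, and the remaining one overexpressed ADAR2 together with SRSF9. ADAR2, the product of ADARB1, converts adenosine to inosine in double-stranded RNA, and SRSF9 is a splicing factor of the serine/arginine-rich family. The study was set up to examine how SRSF9 acts on editing at ADAR2 targets, whereas the values used here are read counts per gene. The labels do not say how the proteins were delivered or how long they were expressed. No library has a replicate, so every difference below is a difference between 2 libraries, and no p-value is given.

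The mitochondrial ribosome translates the few messenger RNAs that mitochondrial DNA encodes, all of them for subunits of the oxidative phosphorylation complexes. Its RNAs come from mitochondrial DNA, while each of its proteins is made from a nuclear gene, translated in the cytosol and imported. Compared with the bacterial ribosome it has lost RNA and gained proteins, so some of its proteins have bacterial counterparts and others are found in mitochondria only. Symbols and structure do not match everywhere. MRPS18A and MRPS30 are placed in the large subunit in structures of the human particle. MRPS36 is a component of the oxoglutarate dehydrogenase complex and not a ribosomal protein.

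The libraries held 152878282 reads in the control, 132887974 with ADAR2 and 97875935 with both proteins. Levels are given as CPM, reads per 1e6 reads of a library size scaled with TMM, a method that balances most genes against each other. ADARB1 stood at 114 CPM in the control, 16100 with ADAR2 and 13647 with both proteins, and SRSF9 at 372, 369 and 18288 CPM, so both followed the labels. Of 12 genes typical of the HEK line, 10 were at 1 CPM or more in each library, and 1 had no reads in the library with both proteins. Markers of fibroblasts reached 1 CPM for 1 of 6 genes, with a summed level of 33.9 to 39.7 CPM. Markers of blood cells did so for 1 of 6, with 4.13 to 4.68 CPM, and those of other epithelia for 2 of 6, with 8.13 to 9.05 CPM. In bulk RNA, fewer expressing cells and less RNA per cell cannot be told apart.

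Nearly the whole set was expressed. A mean of 1 CPM or more over the 3 libraries was reached by 74 of the 78 rows, 46 for the large and 28 for the small subunit, and 71 rows had a mean of 10 CPM or more. The measured members had 488 to 31742 reads in the control, 408 to 29652 with ADAR2 and 321 to 22244 with both proteins. All members together took 0.474% of the reads in the control, 0.482% with ADAR2 and 0.481% with both proteins. Summed over the large subunit, levels were 2790, 2831 and 2921 CPM in that order, and over the small subunit 1900, 1941 and 1986 CPM. The ratio of these sums was 1.47, 1.46 and 1.47, while the ratio of the subunits' median levels per length was 1.26, 1.397 and 1.47. The sums weigh the abundant genes most.

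The 4 rows below the limit all share sequence with neighbouring annotations. MRPL30, a large subunit protein with a bacterial counterpart, had 2, 0 and 6 reads under one identifier and 0, 4 and 0 under the other, in the order control, ADAR2 and both proteins. In GENCODE v29, 19.5% and 83.7% of the exon length of these 2 records overlaps other genes on the same strand. MRPS24, of the small subunit, had 130, 122 and 88 reads, or 0.841, 0.909 and 0.918 CPM. Its exons overlap a joined transcript named URGCP-MRPS24 over 23.2% of their length. The second MRPS17 record had 7, 7 and 6 reads and overlaps over 88.6%, while the first had 1360, 1083 and 861 reads. Whether reads on shared exons were dropped or assigned elsewhere is not given in the sources used here, so these 4 values do not measure how strongly the genes are transcribed.

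Levels between genes were compared per length, as CPM per kb of exon (GENCODE v29), for the 72 measured members with a record there. MRPL45 and MRPS21 have none. The median of the large subunit genes was 23.0 CPM per kb in the control, 23.8 with ADAR2 and 24.6 with both proteins. The median of the small subunit genes was 18.3, 17.04 and 16.8 CPM per kb. In the same libraries the median of measured protein-coding genes was 5.15, 5.07 and 5.15, that of 76 nuclear respiratory chain genes 37.8, 37.3 and 36.7, and that of 78 cytosolic ribosomal protein genes 404, 402 and 419 CPM per kb. The mitochondrial ribosomal set therefore lay above the typical protein-coding gene, below the respiratory chain and far below its cytosolic counterpart. With the longest transcript as the length, the large subunit medians were 31.0, 35.0 and 37.2.

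Members that end up in 1 particle differed widely in level. MRPS34, a mitochondria-specific protein of the small subunit, had the highest level per length, 180 CPM per kb in the control, 201 with ADAR2 and 212 with both proteins. MRPS26, also mitochondria-specific, followed with 101, 116 and 120. Both stood well above the next small subunit gene, MRPS18B, at 50.8, 53.0 and 53.2 CPM per kb. In the large subunit MRPL51 led with 97.5, 94.4 and 98.9, ahead of MRPL37 with 80.6, 83.1 and 83.2 and MRPL18 with 80.5, 80.6 and 81.2. MRPL14 and MRPL41 came next with means of 61.2 and 57.1 CPM per kb. MRPS15 and MRPS25, the next of the small subunit, had means of 28.3 and 27.7. The order of MRPS34, MRPS26 and MRPS18B was the same in each library, and so was that of MRPL51, MRPL37 and MRPL18. The order in the large subunit depends on the length used: per kb of the longest transcript MRPL37 led with a mean of 133, before MRPL51 with 122 and MRPL18 with 103, and MRPL24 (84.0) and MRPL23 (80.0) came next. MRPS34, MRPS26 and MRPS18B were the top 3 of the small subunit by both lengths.

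At the other end stood MRPL46 with 1.51, 1.51 and 1.79 CPM per kb and MRPL38 with 1.37, 1.58 and 2.11. Both proteins belong to the central protuberance, the crest of the large subunit that faces the head of the small one. MRPL53 had 2.35, 2.26 and 2.49 CPM per kb. In the small subunit MRPS17 was lowest with 4.08, 3.74 and 4.16, followed by MRPS6 with a mean of 5.11 and MRPS18C with 5.56. Exons of MRPL38 overlap another gene on the same strand over 37.5% of their length, those of MRPL53 over 45.2% and those of MRPS17 over 27.003%, so their counts are uncertain. MRPL46 overlaps over 11.3%. Same-strand overlap of any size was found for 14 of 74 measured members (18.9%), against 15.9% of measured protein-coding genes. MRPL45 and MRPS21, which have no record, are counted there as without overlap.

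**Figure D1:**
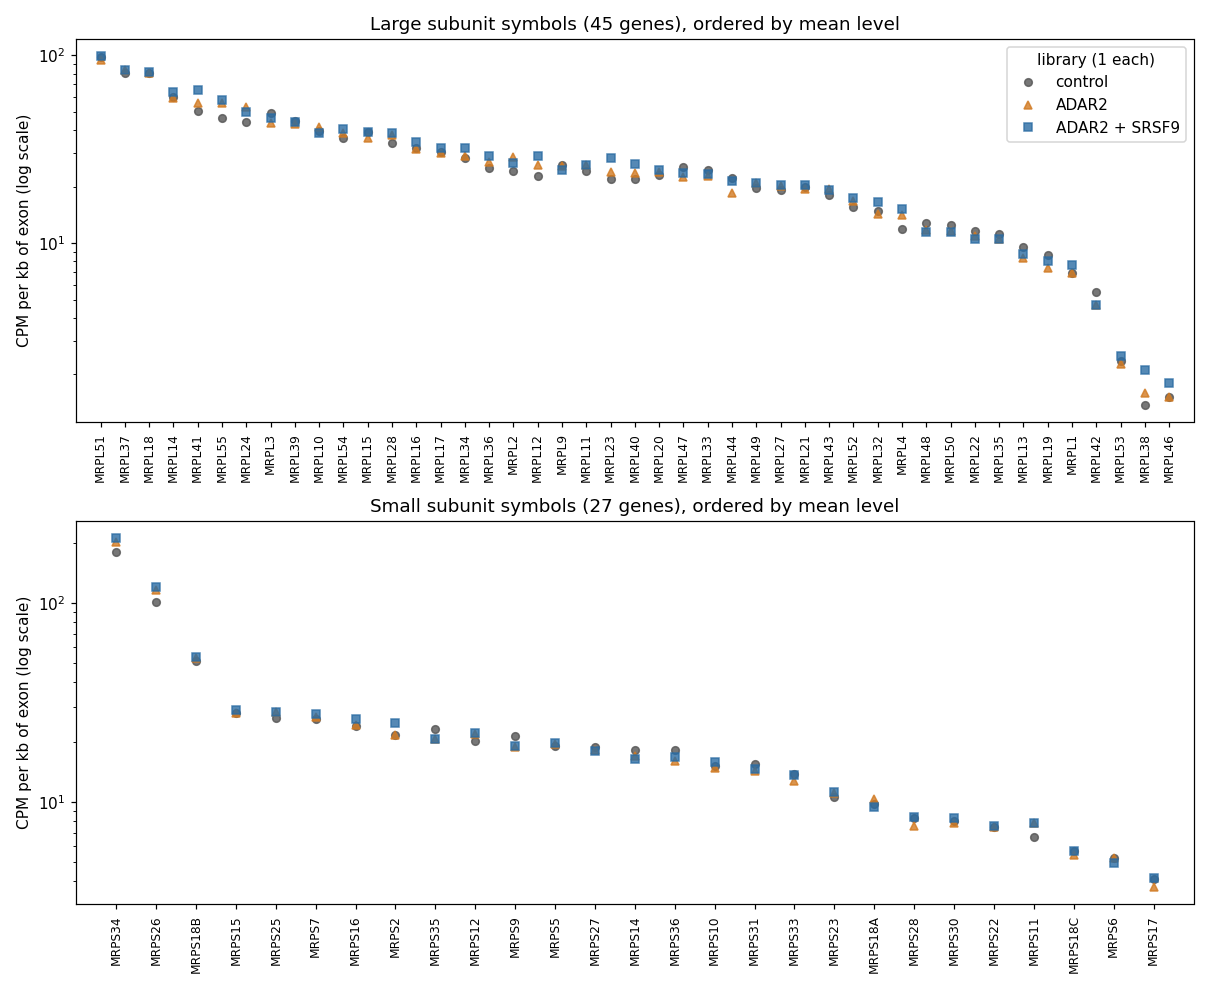
Level of each measured member with a gene record, in CPM per kb of exon on a log axis, with 1 symbol per library (circle control, triangle ADAR2, square ADAR2 and SRSF9) and no error bars, since each group has 1 library. The genes are ordered by their mean level, from MRPL51 to MRPL46 in the large subunit and from MRPS34 to MRPS17 in the small subunit, and the 3 symbols of a gene lie close together compared with the spread between genes.

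ADAR2 overexpression was compared with the control first. The transcripts of the mitochondrial ribosome stayed close to their control level as a set. The median log2 ratio was 5.2e-06 for the 46 large subunit genes and -0.00049 for the 28 small subunit genes, beside -0.00094 for all 16072 measured genes. Ratios ran from 0.831 to 1.21, and 36 members lay above and 38 below a ratio of 1. A member was counted as different at a ratio of 1.2-fold or more with a 95% counting interval that excluded 1. By that rule 2 members were higher and 1 was lower, 2.70% and 1.35% of the 74. Over all measured genes 7.43% were higher and 6.45% were lower, a background that includes genes of much lower counts. None passed at 1.5-fold, which 1.26% of all genes did.

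The 3 genes that passed all encode large subunit proteins. MRPL24, which sits near the exit of the tunnel for the growing protein, had 74.5 CPM in the control, 90.4 with ADAR2 and 84.5 with both proteins, a ratio of 1.21 (counting interval 1.18 to 1.25) for ADAR2 over control. MRPL55 had 87.5, 105 and 110 CPM, a ratio of 1.21 (1.18 to 1.23). For both genes the control library was the lowest of the 3. MRPL44, which has a fold like that of RNase III and a double-stranded RNA-binding domain, had 38.7, 32.1 and 37.6 CPM. Its level was lowest in the ADAR2 library, with a ratio of 0.831 (0.799 to 0.864) to the control, and in the library with both proteins it was back within 3% of the control (ratio 0.973, 0.933 to 1.01). None of the 3 intervals lay wholly beyond 1.2-fold. Next after them in the large subunit were MRPL4 with a log2 ratio of 0.25, and MRPL42 and MRPL19 with -0.24 and -0.22.

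No small subunit gene reached 1.2-fold with ADAR2. The highest was MRPS11 with 37.4, 44.0 and 43.8 CPM, a ratio of 1.18 (1.14 to 1.22) for ADAR2 over control, and MRPS26 and MRPS34 followed with 1.14 and 1.12. The lowest was MRPS9 with 41.2, 35.9 and 36.6 CPM and a ratio of 0.873 (0.841 to 0.906). MRPS36, the dehydrogenase component, had 27.9, 24.6 and 25.7 CPM and a ratio of 0.884 (0.845 to 0.925), and MRPS35 had 0.891. For each of these 6 genes the ADAR2 library lay nearer to the library with both proteins than to the control.

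SRSF9 was then added to ADAR2. The comparison of both proteins with ADAR2 alone showed small ratios that leaned upward in both subunits. The median log2 ratio was 0.062 for the large subunit, with 35 of 46 genes (76.1%) above 0, and 0.026 for the small subunit, with 21 of 28 above 0. The median was 0.012 over all measured genes, 53.7% of which lay above 0. It was 0.019 over protein-coding genes (57.2% above 0) and 0.04 over cytosolic ribosomal proteins (80.8% above 0). With plain library totals the small subunit median turned to -0.019, with 13 of 28 genes above 0, and the large subunit median fell to 0.017, with 27 of 46 above 0, as the median of all genes moved to -0.033. Measured from the median of all genes, which a change of scaling moves with the members, the large subunit was 0.05 higher and the small subunit 0.014 higher. With the trend in GC content removed, described further on, these distances were 0.035 and 0.028.

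By the 1.2-fold rule 1 member was higher and none was lower with both proteins than with ADAR2. Over all genes 5.72% were higher and 8.21% lower, and at 1.5-fold 3.39% passed but no member did. This background includes genes of much lower counts. Of 12765 measured protein-coding genes 554 were higher and 309 lower, and at 1.5-fold 47 and 56. With plain totals 29.1% of the calls over all genes were higher and not 41.1%. The member was MRPL38, with 777 reads in the control, 779 with ADAR2 and 741 with both proteins. These are 5.03, 5.80 and 7.73 CPM, and the ratio of both proteins to ADAR2 was 1.33 (1.203 to 1.48). The MRPL38 level was thus highest with both proteins, but its exon overlap makes the count uncertain. It is left out at a minimum mean of 10 CPM, under which no member passed.

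Among members with a mean of 10 CPM or more, MRPL46 had the highest ratio of both proteins to ADAR2, with 9.69, 9.68 and 11.5 CPM and a ratio of 1.19 (1.10 to 1.29). MRPL23, at the tunnel exit, had 64.99, 71.5 and 84.0 CPM and a ratio of 1.18 (1.14 to 1.21). MRPL41 had 64.0, 70.0 and 82.0 CPM and a ratio of 1.17 (1.14 to 1.21). In all of these the library with both proteins was highest. MRPL44 had the same ratio of 1.17 (1.12 to 1.22), from the low level in the ADAR2 library. In the small subunit MRPS2, which has a bacterial counterpart, was highest with 53.3, 53.3 and 61.5 CPM and a ratio of 1.15 (1.11 to 1.19), followed by MRPS28 with 1.10 and MRPS33 with 1.08.

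The lowest ratios of both proteins to ADAR2 were close to 1. MRPL10, at the base of the stalk that recruits translation factors, had 110, 115 and 106 CPM and a ratio of 0.922 (0.899 to 0.945). MRPL2 had 0.931 and MRPL24 0.935, both after a higher level with ADAR2. In the small subunit symbols MRPS18A was lowest with 12.5, 13.3 and 12.1 CPM and a ratio of 0.914 (0.848 to 0.984), then MRPS6 with 0.939 and MRPS14 with 0.966. The comparisons share libraries, so a gene high in the ADAR2 library alone is high in one of them and low in the next.

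**Figure D2:**
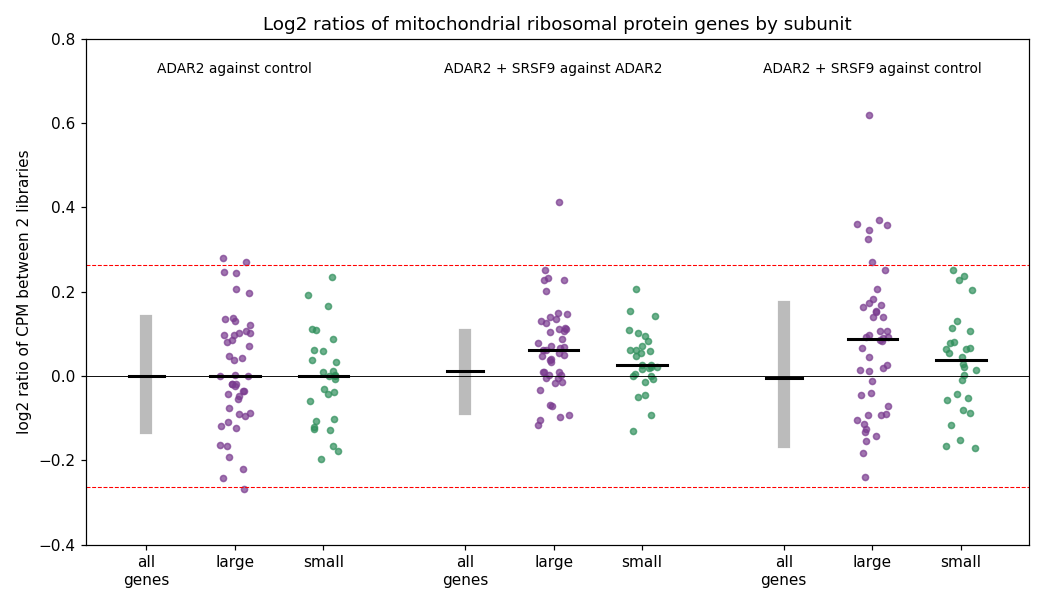
Log2 ratio of CPM for the 46 large and 28 small subunit genes (1 point each, spread sideways at random) in the 3 comparisons. Black bars are medians, the grey bars span the middle 50% of all 16072 measured genes, and the dashed lines mark 1.2-fold. The points past the upper line are all in the large subunit, and the only point past the lower line is MRPL44.

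The library with both proteins was also compared with the control. Here 7 members were 1.2-fold higher and none was lower, 9.46% of the 74 and 15.2% of the large subunit genes. Over all genes 13.8% were higher and 12.7% lower, so the members' share of higher genes was near the background and their share of lower genes was under it. This background includes genes of much lower counts. Of 12765 measured protein-coding genes 1593 were higher and 1020 lower. With plain totals 37.8% of the calls over all genes were higher and not 52.1%. At 1.5-fold 1 member passed (1.35%), beside 3.99% of all genes. The median log2 ratio was 0.089 for the large and 0.037 for the small subunit, beside -0.0058 for all genes. With plain totals these medians were 0.044, -0.0082 and -0.051.

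All 7 higher genes carry large subunit symbols. MRPL38 had the highest ratio, 1.54 (1.39 to 1.70). MRPL23 followed with 1.29 (1.26 to 1.33). MRPL4, which has a bacterial counterpart, had 48.4 CPM in the control, 57.4 with ADAR2 and 62.2 with both proteins, a ratio of 1.29 (1.24 to 1.33). MRPL41 had 1.28 (1.24 to 1.32). MRPL12, the stalk protein, had 23.5, 26.9 and 29.8 CPM and a ratio of 1.27 (1.21 to 1.33), with 68.2% of its exon length shared with another gene on the same strand. MRPL55 had 1.25 (1.22 to 1.29). MRPL40, of the central protuberance, had 43.0, 46.7 and 51.8 CPM and a ratio of 1.21 (1.16 to 1.25). In each of the 7 the ADAR2 library lay between the other libraries.

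No small subunit gene was 1.2-fold apart between both proteins and the control. MRPS26 came nearest with 114, 130 and 136 CPM and a ratio of 1.19 (1.16 to 1.22), then MRPS34 with 197, 221 and 232 CPM and 1.18 (1.16 to 1.199), and MRPS11 with 1.17. The lowest were MRPS9 with 0.889, MRPS35 with 0.891 and MRPS14 with 0.901. In the large subunit the lowest was MRPL42 with 90.4, 76.5 and 76.6 CPM and a ratio of 0.847 (0.823 to 0.871), followed by MRPL45 with 0.881 and MRPL48 with 0.898. Whether the subunits differ in how often their genes passed was not tested.

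**Figure D3:**
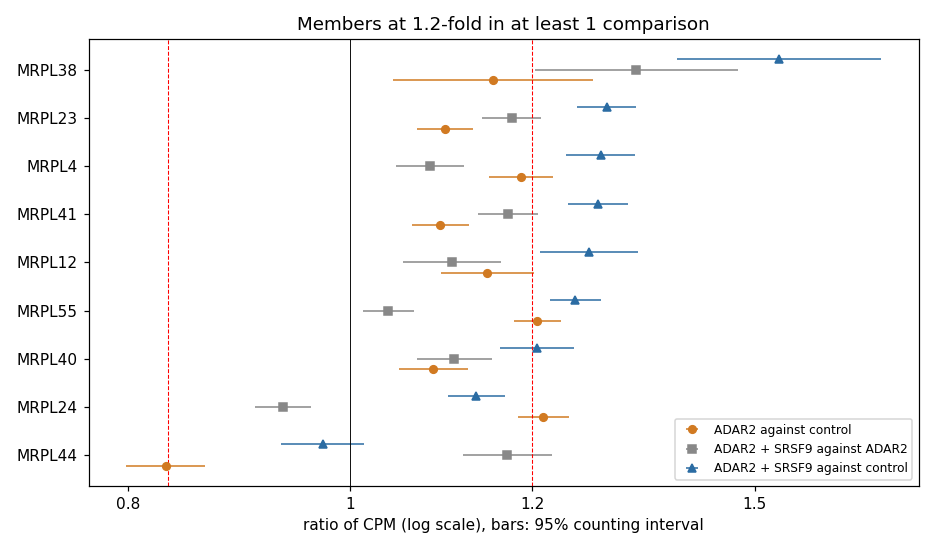
Ratio of CPM between libraries, on a log axis, for the 9 members that reached 1.2-fold in at least 1 comparison. Bars are 95% counting intervals, which cover counting error only, and the dashed lines mark 1.2-fold in either direction. MRPL38 has the highest ratio and the widest intervals, and MRPL44 is the only member below the lower line.

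The members' ratios followed the GC content of their transcripts, as those of other genes did. GC content was taken from the longest transcript of each gene in GENCODE v29 and ran from 33.5% to 71.9% over the 72 members with a record. The longest transcript need not be the one expressed, which was not tested. Across these genes, which are not independent replicates and share the same libraries, Spearman's rho between GC content and the log2 ratio was 0.74 when ADAR2 was set against the control, 0.15 when both proteins were set against ADAR2 and 0.69 when they were set against the control. Over 12765 protein-coding genes the values were 0.68, 0.18 and 0.67. The 7 members that were higher with both proteins than in the control had GC contents of 59.3% to 71.9%.

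The members were also divided into 3 groups of 24 by GC content. The 24 poorest in GC (33.5% to 43.3%) had median log2 ratios of -0.095 for ADAR2 against control, with 21 below 0, and -0.085 for both proteins against control, with 16 below 0. The 24 richest in GC (52.7% to 71.9%) had 0.12, with 4 below 0, and 0.18, with 2 below 0. For both proteins against ADAR2 the same groups had medians of 0.061 and 0.067, and the middle group had 0.033. The trend of protein-coding genes in that comparison was near 0 up to 50% GC and rose to 0.083 from 67.5%. With this trend removed the medians were 0.066 in the poorest and 0.017 in the richest group. The large subunit genes had a median GC content of 51.7% and the small subunit genes 45.5%, beside 48.5% over all genes, and the richest group held 19 large and 5 small subunit genes.

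When the trend of protein-coding genes with GC content was subtracted, the set of members that passed became another one. For ADAR2 against control no member passed, and MRPL24, MRPL55 and MRPL44 had log2 ratios of 0.20, 0.12 and -0.19. By the same rule 807 of all 15603 genes with a GC content were higher and 609 were lower. For both proteins against control 4 of 72 passed, MRPL46 (0.39), MRPL38 (0.37), MRPL32 (0.33) and MRPL1 (0.29), and only MRPL38 was among the 7 of before. Of the 15603 genes 1095 were higher and 1445 lower here, and of the 12765 protein-coding genes 663 and 547. The members' share of higher genes was thus not above that of all genes. Of the other 6, MRPL23, MRPL4, MRPL41, MRPL12, MRPL55 and MRPL40 were left with 0.17, 0.10, 0.087, 0.091, 0.14 and 0.095, from 0.37, 0.36, 0.36, 0.35, 0.33 and 0.27. For both proteins against ADAR2 MRPL38 alone passed again, with 0.34, beside 715 higher and 1356 lower of the 15603 genes. The medians for both proteins against control were then 0.052 for the large and 0.068 for the small subunit, so the order of the subunits was turned round. For ADAR2 against control they were -0.011 for the large subunit (20 of 45 above 0) and 0.035 for the small (18 of 27 above 0). What produces the gradient was not tested.

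**Figure D4:**
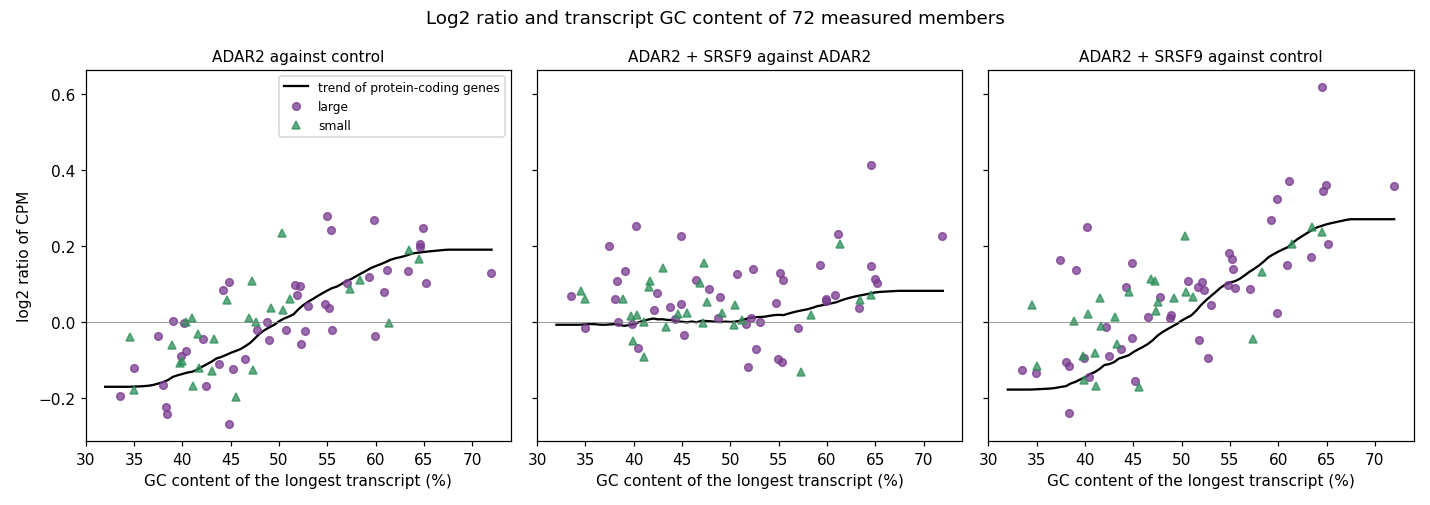
Log2 ratio of CPM against GC content of the longest transcript (%) for 72 members, circles for the large and triangles for the small subunit, in the 3 comparisons. The line is the smoothed median of protein-coding genes with a mean of 10 CPM or more. The points climb along the line in the outer panels (rho 0.74 and 0.69). In the middle panel (rho of the points 0.15) the line stays near 0 up to 50% GC and rises to 0.083 from 67.5%.

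MRPS30, a large subunit protein in spite of its symbol, had 49.7, 48.4 and 51.2 CPM, with a ratio of 1.06 (1.02 to 1.10) for both proteins over ADAR2. The MRPS18 genes descend from 1 bacterial protein and have taken different places. MRPS18C kept the bacterial position and had 27.4, 26.3 and 27.5 CPM. MRPS18B, elsewhere in the small subunit, had 96.0, 100 and 100 CPM, with 1.05 (1.02 to 1.07) for both proteins over the control. MRPS18A, in the large subunit, had 12.5, 13.3 and 12.1 CPM. Their log2 ratios for both proteins against control were 0.0032, 0.066 and -0.043 in the order C, B, A, and the counting intervals of the 3 overlapped. With the genes assigned by structure the subunit medians kept their direction.

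By origin and place the groups were small. The 29 large subunit genes with bacterial counterparts had a median log2 ratio of 0.093 for both proteins against control, with 4 members 1.2-fold higher. Counted by structure, the 19 mitochondria-specific ones had 0.046 with 3 higher. Of all genes 13.8% were higher in this comparison, so both counts lie near the background. In the small subunit the 15 with bacterial counterparts had 0.054 and the 10 mitochondria-specific ones 0.044, with none at 1.2-fold. The groups by place come from a list that need not be complete. The 4 genes listed for the central protuberance, MRPL38, MRPL40, MRPL46 and MRPL48, had a median of 0.20 for both proteins against ADAR2, with 3 of 4 above 0. The exception was MRPL48, with 56.0, 51.4 and 50.3 CPM. The log2 ratios of these genes ran from -0.032 to 0.41, and the large subunit genes as a whole had a median of 0.062. Genes missing from the list could move the median of 0.20, so it does not describe the whole protuberance. MRPL38, MRPL40 and MRPL46 were all highest in the library with both proteins, but the MRPL38 count is uncertain and MRPL46 had a mean of only 10.3 CPM. The genes listed for the stalk, MRPL10, MRPL11 and MRPL12, had 0.0106 as their median for both proteins against ADAR2. The 7 genes listed for the head of the small subunit had -0.11 for ADAR2 against control, with 6 below 0, and 0.023 once the GC trend was subtracted.

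MRPS11 and MRPL46, a pair picked out after its values were seen, start 34 bases apart on opposite strands (GENCODE v29). With both proteins against the control they had similar ratios, 1.17 (1.13 to 1.22) for MRPS11 and 1.19 (1.10 to 1.29) for MRPL46. MRPS11 was 1.18-fold higher with ADAR2 than in the control and stayed at that level with both proteins (0.994, 0.956 to 1.03). MRPL46 was level between ADAR2 and the control (0.999, 0.927 to 1.08) and higher with both proteins. Before removal of the GC trend, MRPS11 thus differed mainly between the control and ADAR2 libraries. MRPL46 differed mainly between the ADAR2 library and the one with both proteins. The counting intervals of the 2 genes did not overlap in either of these comparisons, while they did overlap for both proteins against the control. With the trend removed, MRPS11 had a log2 ratio of 0.23 with ADAR2 over the control. It had -0.0093 with both proteins over ADAR2 and 0.22 with both over the control. MRPL46 had 0.13, 0.26 and 0.39 in the same order. MRPL46 too was then higher with ADAR2, by the subtracted trend of -0.13 at the 40.2% GC of its longest transcript (5561 bases). The ratios of both proteins to the control were less alike. Each step rests on 1 library per group. A protein-coding gene starting within 1000 bases on the opposite strand was found for 15 of 74 measured members (20.3%), 12 of the large and 3 of the small subunit, against 9.61% of measured protein-coding genes. MRPL45 and MRPS21, which have no gene record, are counted among the members without one.

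The sequence around the gene starts was read from RefSeq windows (GRCh38.p14) that run from 250 bases before a start to 50 after it, on both strands, and 67 of the 76 member symbols had one. A pair of short words were more frequent there than in other genes. The word AAGATGGC, the core of the motif of the factor YY1, was found in 21 of 67 members (31.3%). Its share was 6.38% of 9716 measured protein-coding genes and 3.52% of all 27305 genes with a window. In 16 members (23.9%) it lay in the sense direction within the 50 bases after the start, against 3.61% of the measured protein-coding genes, with its first base at position 7 to 36. In 12 of these 16 its ATG is an annotated start codon in GENCODE v29, so the word overlaps the beginning of the protein. The following windows of 30 bases show it in members named above, 5′ to 3′ on the gene's strand, with the word in capitals.
MRPL38, chr17:75904860-75904889, minus strand: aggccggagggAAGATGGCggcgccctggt
MRPL46, chr15:88467362-88467391, minus strand: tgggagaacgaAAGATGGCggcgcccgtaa
MRPL42, chr12:93467511-93467540, plus strand: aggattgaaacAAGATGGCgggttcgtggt
MRPL51, chr12:6493223-6493252, minus strand: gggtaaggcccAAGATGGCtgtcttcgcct
MRPS18A, chr6:43687764-43687793, minus strand: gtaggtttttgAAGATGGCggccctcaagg
MRPS18B, chr6:30617852-30617881, plus strand: gggcgtacgtcAAGATGGCggcgtctgtat
MRPS30, chr5:44808949-44808978, plus strand: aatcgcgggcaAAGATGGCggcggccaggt

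The other word was CCGGAAG, the core bound by ETS family factors such as GABPA. It was found in 29 of 67 members (43.3%), 42.5% of the large and 44.4% of the small subunit genes. Its share was 21.7% of measured protein-coding genes and 12.2% of all 27305 genes with a window. Of its 38 occurrences 27 began within the 100 bases before the start. MRPS34, the member with the highest level per length, has 3 of them, and the windows below show a stretch with 2 of those beside single occurrences in MRPS26, MRPL18, MRPL40 and MRPS18A. Capitals mark the word or, where it lies on the other strand, its reverse complement CTTCCGG.
MRPS34, chr16:1773145-1773174, minus strand: gacaccggcctCTTCCGGtgaCTTCCGGcc
MRPS26, chr20:3046004-3046033, plus strand: tccccgcgccgCTTCCGGggcacggtggcg
MRPL18, chr6:159790430-159790459, plus strand: gggacttgctaCTTCCGGgtcggtggcgtc
MRPL40, chr22:19432523-19432552, plus strand: ggggcgcacgcCCGGAAGcggcgagggtag
MRPS18A, chr6:43687804-43687833, minus strand: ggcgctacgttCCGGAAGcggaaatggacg

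Both words occurred in 8 members and at least 1 of them in 42 of 67 (62.7%). The other words were no more frequent in members than in measured protein-coding genes by more than a point: CGCATGCG, the core of the NRF1 motif, in 4.48% of both, the E-box CACGTG in 13.4% against 12.7%, the TATA box TATAAA in 4.48% against 8.30%, CCAAT in 34.3% against 43.5% and the GC box GGGCGG in 61.2% against 78.7%. Over all windows the shares of these 5 words were 2.02%, 7.26%, 11.5%, 34.6% and 45.0%. Each word was searched on both strands, and a match describes letters and not binding. Members with and without AAGATGGC had medians of 0.048 and 0.054 for both proteins against ADAR2, and those with and without CCGGAAG 0.055 and 0.032.

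**Figure D5:**
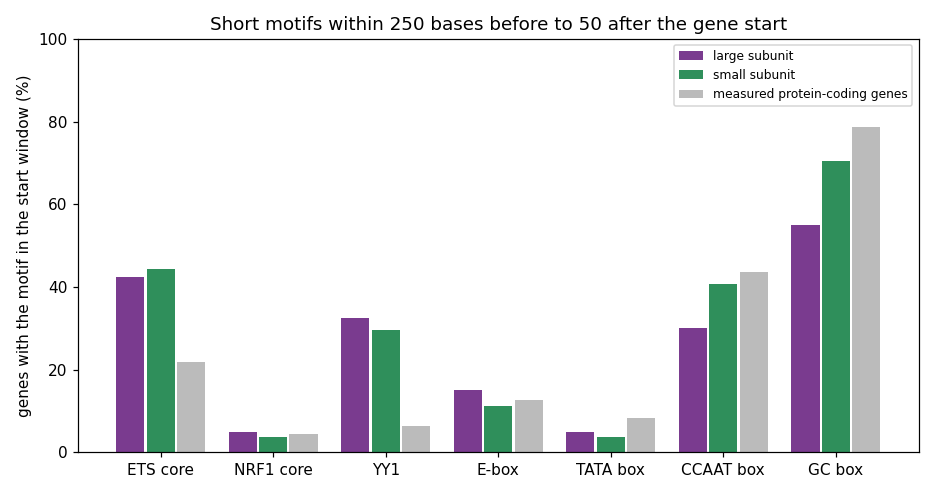
Share of genes (%) with each short word in the window from 250 bases before to 50 after the start, for 40 large subunit genes, 27 small subunit genes and 9716 measured protein-coding genes. The ETS core (42.5% and 44.4%) and YY1 bars of both subunits stand far above the grey bars, the NRF1 and E-box bars lie near them, and the CCAAT and GC box bars lie below.

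Lists of genes that work with the mitochondrial ribosome were counted by the same rule. The shares of all genes to read the counts against are 7.43% higher and 6.45% lower for ADAR2 against control, 5.72% and 8.21% when both proteins are set against ADAR2, and 13.8% and 12.7% when they are set against the control. These shares include genes of much lower counts. With the GC trend removed, 807 of 15603 genes were higher and 609 lower, then 715 and 1356, and 1095 and 1445, in the same order. The 7 mitoribosome proteins whose symbols do not start with MRPL or MRPS had medians of 0.070 with ADAR2 over the control, 0.024 with both proteins over ADAR2 and 0.085 with both proteins over the control. In the last of these AURKAIP1 (103, 117 and 130 CPM) and GADD45GIP1 (70.2, 81.3 and 85.3 CPM) were 1.2-fold higher, and after removal of the GC trend none was. CHCHD1 had the highest ratio of both proteins to ADAR2 (log2 0.17) and ICT1, a peptide release factor built into the large subunit, the lowest (-0.041). PTCD3, a small subunit protein, was the lowest against the control in both libraries (-0.11 and -0.088).

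Of 25 assembly factors of the particle, 1 was higher and none lower with ADAR2 than in the control, 1 higher and none lower with both proteins than with ADAR2, and 2 higher and 1 lower for both proteins against control. With the GC trend removed, for 23 of them, none passed with ADAR2 over the control. Then 1 was higher with both proteins than with ADAR2, and 2 were higher and none lower for both proteins against control. MPV17L2, which takes part in ribosome assembly, had 24.0, 30.1 and 31.3 CPM and was higher in both comparisons with the control (log2 0.32 and 0.38). With the GC trend removed MPV17L2 had 0.17 and 0.18, under the 1.2-fold limit. MTG1, a GTPase that acts in large subunit assembly, had 6.82, 7.53 and 9.99 CPM and was higher with both proteins than with ADAR2 (0.41). METTL15, a methyltransferase of the small subunit RNA, was the one lower with both proteins than in the control (19.5, 17.005 and 16.2 CPM, -0.27), and had -0.12 with the GC trend removed. ERAL1, which binds the small subunit RNA, had the highest ratio of both proteins to ADAR2 at a mean of 10 CPM or more (0.20).

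Of 18 translation factors, 1 was lower in each comparison with the control and none passed between both proteins and ADAR2. That gene was MTRF1L, a release factor, with 43.3, 35.8 and 35.3 CPM (log2 -0.27 and -0.30). With the GC trend removed none of the 18 translation factors passed in any comparison. TUFM, the elongation factor that brings transfer RNA to the ribosome, had 391, 411 and 443 CPM, which is 0.18 higher on the log2 scale with both proteins than in the control. TACO1 had the highest ratio of ADAR2 to control (0.19), TSFM that of both proteins to ADAR2 (0.21), and C12orf65 the lowest there (-0.18).

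Of 17 measured genes for mitochondrial transcription and RNA processing, 2 were lower with ADAR2 than in the control, none passed between both proteins and ADAR2, and 2 were higher with both proteins than in the control. Their median log2 ratio was -0.077 with ADAR2 over the control, 0.11 with both proteins over ADAR2 and -0.037 with both proteins over the control. With both proteins over ADAR2, 15 of 17 lay above 0, beside 53.7% of all genes. With the GC trend removed the medians were -0.0033, 0.093 and 0.069 in the same order, and none of the 17 passed in any comparison. FASTKD5 (36.8, 30.1 and 32.1 CPM) and FASTKD3 (10.9, 8.98 and 10.6 CPM) were the lower ones, and FASTK (109, 127 and 145 CPM) had the highest ratios to the control, with log2 0.22 and 0.41. FASTKD1 was lowest in the comparisons of both proteins with ADAR2 (-0.18) and with the control (-0.21). Of 10 measured regulators of mitochondrial biogenesis 1 passed: CREB1 was lower with both proteins than in the control (43.3, 37.0 and 35.8 CPM, -0.27). With the GC trend removed CREB1 had -0.099 there, and none of the 10 passed. ESRRA had the highest ratios to the control (0.14 and 0.25) and GABPB1 the lowest with ADAR2 (-0.24). The 13 protein-coding genes of mitochondrial DNA, whose messenger RNAs the mitochondrial ribosome translates, had medians of -0.078, 0.033 and -0.072, and none was 1.2-fold apart. With the GC trend removed these medians were 0.0032, 0.031 and 0.017, and 1 of the 13 was then higher with both proteins than in the control.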

How the data were processed

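The authors deposited raw counts, whole reads per gene, for 3 libraries and 57268 identifiers. The build hg19 and the programs GATK, Picard, SAMtools and STAR are named, without roles, per the submitters' processing notes. The labels' protocols give Trizol RNA and a directional NEBNext kit. Which program counted the reads, and whether by strand, is not given in the sources used here, so reads of overlapping genes may be mixed.

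Counts were scaled by TMM (edgeR 4.0.16, R 4.3.3; factors 1.01, 1.01 and 0.979). Other steps used Python 3.11.15, numpy 2.4.6, pandas 2.3.3, scipy 1.17.1 and matplotlib 3.10.9. To each count 0.5, weighted by library size, was added before log2 ratios. The 95% intervals are exact Clopper-Pearson intervals of the share of a pair's reads in 1 library and cover counting error only. The limit set by 3 counts is 0.0194, 0.0223 and 0.0313 CPM. Genes with a mean of 1 CPM or more were tested (16072). GENCODE v29 (GRCh38) gave lengths and GC content, matched for 76 of 78 members on the identifier without its version. That build is not the authors', so the windows around starts are described separately from the counts. The GC trend was the median log2 ratio in 50 bins of 9594 protein-coding genes with a mean of 10 CPM or more, smoothed over 5 bins.

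Members and lists were chosen with earlier results of these data known. Named genes were, per comparison and subunit, the 3 highest and 3 lowest log2 ratios at a mean of 10 CPM or more, every member at 1.2-fold, the 5 highest and 3 lowest levels per length, MRPS18A, MRPS18B, MRPS18C, MRPS30, MRPS36 and MRPL44, and the ends of each list. MRPS17, MRPS24, MRPL30, MRPS11 with MRPL46 as a pair, and members passing only after GC removal were singled out after their values were seen. In simulated counts for 16072 genes with 200 changed 1.4-fold, 195, 197 and 195 were recovered in the 3 comparisons, in the order of the text, with 84, 104 and 119 false calls. The simulated counts held counting error only, with no variation between cultures and no GC trend. They therefore do not give the rate of false calls in these libraries.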

Additional observations from a re-analysis of the deposited data

How the results depend on the processing

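Alternatives were DESeq2 1.42.0 size factors, upper-quartile scaling, plain library totals, library sizes without ADARB1, SRSF9 and mitochondrial genes, no filter, a mean of 10 CPM, a prior count of 5, GC removal, an interval wholly beyond 1.2-fold, means, subunits by structure, and another length. For both proteins against ADAR2, the small subunit median of 0.026 became -0.019 with plain totals and 0.0052 with the reduced library sizes, and the 1 member at 1.2-fold became 2 without a filter and 0 at a mean of 10 CPM. After GC removal 0 members and not 3 passed for ADAR2 against control, and 4 and not 7 for both proteins against control. Of 15603 genes 807 were then higher and 609 lower in the former comparison, and 1095 and 1445 in the latter. With the interval wholly beyond 1.2-fold, 0 passed for ADAR2 against control. The longest transcript as length moved the large subunit medians to 31.0, 35.0 and 37.2 CPM per kb. For both proteins against control, the small subunit median of 0.037 turned to -0.0082 with plain totals and rose to 0.068 after GC removal, and the large subunit median of 0.089 became 0.044 and 0.052. For both proteins against ADAR2, the large subunit median of 0.062 became 0.017 with plain totals and 0.032 after GC removal. For ADAR2 against control both medians lie near 0, and their sign depends on the scaling. After GC removal they were -0.011 for the large and 0.035 for the small subunit. Of the log2 ratios of single named members, 70 of 114 moved after GC removal and 29 of 117 with plain totals. No paired analysis was possible because each group has 1 library. The second MRPS17 record and MRPL30 have under 10 reads in each library, too few for a ratio.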

Other observations

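The table holds 66 pseudogene rows named after members, of which 25 had no reads in any library. Together these rows had 2302 reads in the control, 2143 with ADAR2 and 1511 with both proteins, or 0.318%, 0.335% and 0.321% of the members' reads. A mean of 1 CPM was reached by 4 of them: MRPL45P2, MRPL3P1, MRPS31P5 and MRPS36P1. MRPS31P5 had 175, 145 and 177 reads, which is 1.13, 1.08 and 1.85 CPM, and was highest with both proteins (log2 0.77 against ADAR2). MRPS36P1 had 213, 172 and 82 reads, which is 1.38, 1.28 and 0.855 CPM, and was lowest there (-0.58). Their parent genes MRPS31 and MRPS36 had log2 ratios of 0.018 and 0.062 in the same comparison. Reads of near-identical copies can be split between a gene and its pseudogene, and the part of this in the values was not tested.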
